A study of Mus musculus with 8 samples.

Results

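The nuclear-encoded genes of oxidative phosphorylation were followed in mouse fibroblasts under cardiac reprogramming. They were chosen by symbol as the Nduf subunit genes of complex I, Sdha to Sdhd of complex II, the Uqcr genes of complex III, the Cox4 to Cox8 genes of complex IV and the Atp5 genes of complex V. Pseudogene symbols and 8 Ndufaf assembly factors were left out. The rule found 85 of the 50600 genes listed, with 38 in complex I, 4 in complex II, 8 in complex III, 18 in complex IV and 17 in complex V. Grouping follows the symbol: Ndufa4 is counted with complex I although its protein has since been found with complex IV, and Atp5s and Atp5sl carry the family symbol without being classical subunits of ATP synthase.

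RNA sequencing covered 8 libraries of C57BL/6 mouse embryonic fibroblasts (MEFs). All of them carried retroviruses for GHMT (Gata4, Hand2, Mef2c and Tbx5), a set of factors that turns fibroblasts towards heart muscle cells, and were grown in StemPro-34 SFM, a serum-free medium. For 7 days the cells received ethanol at 0.1%, DMSO at 1%, I-CBP112 at 5 µM, which occupies the CBP and p300 bromodomains, or C646 at 5 µM, which blocks the catalytic site of these acetyltransferases. There were 2 libraries a treatment, numbered 2 and 3, and every treatment, ethanol included, shared the factors and the medium; no group without factors was analysed here. The labels do not name the inhibitors' solvent, so DMSO is treated as a treatment of its own. Nothing states that the libraries of a group came from separate cultures, so the spread behind the errors may be technical. The errors rest on 1 estimate of spread per gene for all 8 libraries, not on the 2 libraries of a group alone.

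Oxidative phosphorylation passes electrons from NADH through complex I, or from succinate through complex II, to complex III, cytochrome c and complex IV, and the proton gradient built on the way drives complex V, the ATP synthase. A few core subunits are encoded in mitochondrial DNA and all others in the nucleus. Heart muscle is rich in mitochondria and uses muscle forms of some complex IV subunits, such as Cox6a2, Cox7a1 and, in rodents, Cox8b, in place of the forms found in most other cells.

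Promoters are shown first for the genes the results turn on that have a RefSeq window (GRCm38.p6), each as the 250 bases before the start in the direction of the gene. Cox7a1 (chr7:30183921-30184170, plus strand), the muscle form of subunit 7a, is set beside its widely expressed partner Cox7a2 (chr9:79759854-79760103, minus strand). Cox6a1 (chr5:115348959-115349208, minus strand) is the widely expressed form of subunit 6a, and Cox6b2 (chr7:4753095-4753344, minus strand) the testis form of subunit 6b. Uqcrh (chr4:116075071-116075320, minus strand) and Atp5g3 (chr2:73911327-73911576, minus strand) stand for the widely expressed subunits of complexes III and V that passed the test. Capitals mark matches, on either strand, to the letters GCGCANGCG for NRF1, AANATGGCG for YY1, TNAAGGTCA for ERR, CCGGAAG for factors of the ETS family, which includes the respiratory regulator Gabpa, or AGATAA for the GATA family, to which Gata4 belongs.
Cox7a1: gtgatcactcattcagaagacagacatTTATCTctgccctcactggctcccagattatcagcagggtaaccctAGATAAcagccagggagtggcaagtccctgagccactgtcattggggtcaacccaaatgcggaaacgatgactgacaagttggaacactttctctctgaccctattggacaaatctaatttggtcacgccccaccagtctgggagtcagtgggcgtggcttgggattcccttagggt
Cox7a2: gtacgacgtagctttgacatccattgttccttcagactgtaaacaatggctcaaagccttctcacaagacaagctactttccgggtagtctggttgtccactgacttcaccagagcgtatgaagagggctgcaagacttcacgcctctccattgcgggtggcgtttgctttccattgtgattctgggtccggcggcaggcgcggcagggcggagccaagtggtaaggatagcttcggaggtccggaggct
Cox6a1: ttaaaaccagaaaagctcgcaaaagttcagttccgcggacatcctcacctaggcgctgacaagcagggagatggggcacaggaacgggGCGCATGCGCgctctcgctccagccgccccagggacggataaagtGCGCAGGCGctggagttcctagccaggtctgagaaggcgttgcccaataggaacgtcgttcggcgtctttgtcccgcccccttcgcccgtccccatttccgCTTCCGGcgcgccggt
Cox6b2: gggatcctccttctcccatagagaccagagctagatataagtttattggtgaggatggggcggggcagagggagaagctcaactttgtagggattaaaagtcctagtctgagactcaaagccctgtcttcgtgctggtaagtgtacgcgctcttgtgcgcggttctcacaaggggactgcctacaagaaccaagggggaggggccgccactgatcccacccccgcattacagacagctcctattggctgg
Uqcrh: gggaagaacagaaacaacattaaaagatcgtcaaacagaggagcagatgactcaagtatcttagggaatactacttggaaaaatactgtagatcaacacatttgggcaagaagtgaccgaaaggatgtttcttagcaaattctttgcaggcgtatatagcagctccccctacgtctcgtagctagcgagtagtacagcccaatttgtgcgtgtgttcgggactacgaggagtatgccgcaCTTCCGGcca
Atp5g3: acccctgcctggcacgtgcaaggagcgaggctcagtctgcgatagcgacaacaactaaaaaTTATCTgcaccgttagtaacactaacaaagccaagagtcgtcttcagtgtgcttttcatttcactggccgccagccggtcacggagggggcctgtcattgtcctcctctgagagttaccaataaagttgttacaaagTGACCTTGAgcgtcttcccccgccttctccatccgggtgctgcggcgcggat

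The Cox7a1 window holds 2 GATA matches and 4 CpG pairs, whereas that of Cox7a2 holds 14 CpG pairs and none of these 5 motifs; the median over the module's windows was 14 CpG pairs, and over promoters of tested genes 16. The Cox6a1 window holds 3 NRF1 matches, of which a pair overlap, and 1 ETS match. Uqcrh has 1 ETS match close to its start, Atp5g3 has 1 ERR and 1 GATA match, and Cox6b2 has none of the 5. Over windows of 300 bases, 50 of them after the start, 70 of the 85 genes had a RefSeq entry. A member's window was the one nearest the start of its listed transcript. Each background gene gave the first window listed, and members were not removed from the background. The CpG medians and motif shares set side by side here are therefore not matched in the choice of window. Entries not in the table include Atp5a1, Cox4i1, Cox4i2, Cox6a2, Cox6c, Cox8c, Ndufa2, Ndufa4l2, Ndufb9, Ndufs1, Sdhc, Uqcrb, Uqcrc2 and Uqcrq. The NRF1 letters were found in 20 of the 70, or 28.6%, against 13.6% of 10429 promoters of genes tested in these cells and 6.47% of all 27025 promoters. For YY1 the shares were 14.3%, 5.24% and 2.51%, and for ETS 22.9%, 17.6% and 9.12%. The ERR letters occurred in 3 of the 70 (Atp5g3, Ndufb4 and Sdhd), or 4.29%, against 0.729% and 1.26%. GATA letters occurred in 8.57% against 6.18% and 11.4%. Of the letters searched for the other reprogramming factors, an E-box of the Hand type (CATCTG) was found in 10% against 11.5% and 17.2%, and a T-box (AGGTGTGA) and the MEF2 motif in 0 of 70, against 0.777% and 0.431% of tested promoters. No motif here contains another, the matches are descriptions of letters, and binding was not measured.

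Values of single libraries were not analysed here. Group means of normalised counts were rebuilt from the authors' deposited tables of DMSO, I-CBP112 and C646, each against a common reference read here as ethanol, and errors after ± are the tables' standard errors (SE) on the log2 scale. Of the 85 genes, 81 were among the 14830 with enough counts for an adjusted p (a mean of 26.1 or more). The 4 others were Cox4i2, with a mean of 7.87 normalised counts, Cox8b with 19.9, Cox7b2 with 0.261 and Cox8c, listed at 0. All of the untested genes are tissue forms of complex IV subunits, so counts over tested genes do not cover them. The summed rebuilt counts of all groups were close to each other, at 38066600 (ethanol), 38573400 (DMSO), 37516600 (I-CBP112) and 37834600 (C646). The fibroblast label was met by 12 of 12 fibroblast markers with tested counts, at 2.85% of all normalised counts in ethanol, 1.78% in DMSO, 1.76% in I-CBP112 and 2.82% in C646. A list of 12 cardiomyocyte markers, 11 of them tested, took 0.285%, 0.815%, 0.819% and 0.293% in the same order. In bulk RNA, more cells of a type and more RNA per cell cannot be told apart.

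The 85 genes together made up 0.624% of normalised counts in ethanol, 0.771% in DMSO, 0.798% in I-CBP112 and 0.641% in C646. Complex V took the largest part, at 0.248%, 0.327%, 0.330% and 0.254%. Per kilobase of transcript (the median length of the gene's protein-coding transcripts in GENCODE M21), the highest level with ethanol was that of Atp5b, the catalytic beta subunit of ATP synthase, at 16215 normalised counts per kb. Cox6a1 at 9896 and Cox4i1, the widely expressed form of subunit 4, at 9608 followed on the same scale. The genes with the highest mean counts of complexes II and III reached lower levels per kb with ethanol: Uqcrc1, a core protein of complex III, 2939, and Sdha, the flavoprotein of complex II, 2001. The muscle forms were low beside these, with Cox7a1 at 356 and Cox6a2 at 39.5 counts per kb.

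**Figure D1:**
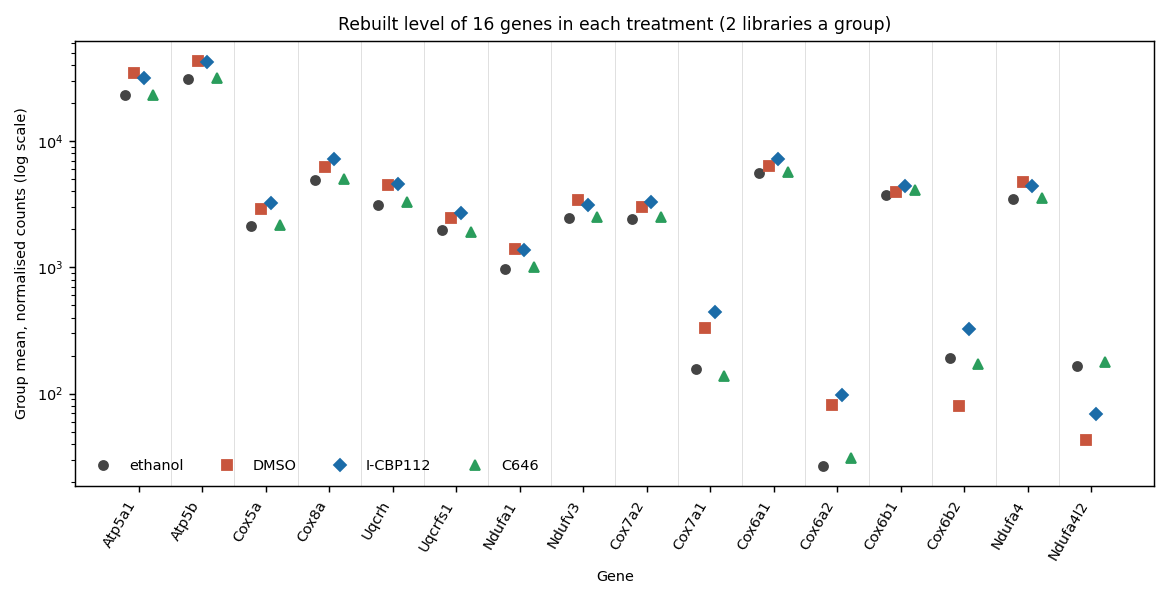
Rebuilt group means of 16 genes (vertical axis, normalised counts on a log scale; marker shape and colour give the treatment, 2 libraries a group; no error bars, because single libraries were not analysed here). DMSO and I-CBP112 lie above ethanol and C646 for the genes from Atp5a1 to Cox6a2, while Ndufa4l2 lies below them in DMSO and I-CBP112 and Cox6b2 lies below them in DMSO only.

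DMSO was compared with ethanol to see what this solvent does to the module. Of 81 tested genes, 15 rose and 2 fell in the authors' deposited table (calls at an adjusted p below 0.05), where 8.07% of all tested genes were called higher and 7.9% lower. The muscle forms Cox6a2 and Cox7a1 rose 3.03-fold and 2.10-fold, and the 13 other genes called higher rose 1.28-fold to 1.68-fold. The median log2 fold change of the 81 genes was 0.25, against 0.03 over all tested genes and 0.05 over the 5878 genes with a mean of 1000 or more. Of the 81, 79 lay above 0, compared with 54.4% of all tested genes. These genes share their libraries and are not independent of each other. By complex, 4 of 38 genes rose and 1 fell in complex I, 0 of 4 in complex II, 1 of 8 rose in complex III, 5 of 14 rose and 1 fell in complex IV, and 5 of 17 rose in complex V. The medians were 0.24, 0.25, 0.33, 0.24 and 0.25.

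Among the ATP synthase genes, Atp5a1, the alpha subunit, had rebuilt means of 23137 normalised counts in ethanol, 34491 in DMSO, 31502 in I-CBP112 and 23413 in C646. DMSO and I-CBP112 were thus the high groups. In the authors' deposited table its log2 fold change with DMSO was 0.58 ± 0.12 (adjusted p = 6.42e-05). Atp5b had 31067, 43207, 42325 and 31778 normalised counts in the same order, and rose by 0.48 ± 0.13 with DMSO in the authors' deposited table (adjusted p = 0.00337). Atp5o, the stalk protein OSCP, rose by 0.37 ± 0.13 in the authors' deposited table (adjusted p = 0.031). Of the Atp5g genes, 3 loci that code for the same mature c subunit of the rotor, only Atp5g3 passed, at 0.40 ± 0.12 in the authors' deposited table (adjusted p = 0.00547); Atp5g1 had 0.22 ± 0.12 and Atp5g2 0.19 ± 0.18, and differences between these paralogs were not tested. Atp5g3 also had the highest level of them per kb, 4936 normalised counts with ethanol against 1037 and 1053 (4905 against 589 and 844 with the transcript lengths listed in the tables). The low-count Atp5s (175 normalised counts with ethanol and 294 with DMSO) had the highest fold change of the complex V symbols, 0.75 ± 0.25 in the authors' deposited table (adjusted p = 0.0242). The lowest was that of Atp5e, the epsilon subunit, at 0.05 ± 0.16.

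In complex IV the called subunits found in most cells were Cox5a, at 2120 normalised counts with ethanol and 2913 with DMSO, Cox5b at 3606 and 4666, and Cox8a at 4932 and 6304. The authors' deposited table lists them at 0.46 ± 0.13 (adjusted p = 0.00627), 0.37 ± 0.12 (adjusted p = 0.0189) and 0.35 ± 0.11 (adjusted p = 0.014) on the log2 scale. Cox4i1, at 7254 and 7417 normalised counts, had 0.03 ± 0.14 in the authors' deposited table, with a 95% interval from -0.24 to 0.31. Values of the subunits found in most cells ran from near 0 for Cox4i1 and Cox6b1 (0.08 ± 0.15) to the calls above, and differences between subunits were not tested. In complex III, Uqcrh, the hinge protein that helps cytochrome c to dock, had 3144 normalised counts with ethanol and 4464 with DMSO, and rose by 0.51 ± 0.15 in the authors' deposited table (adjusted p = 0.00642). Uqcrq, a small accessory subunit, had the lowest value there, 0.15 ± 0.18. The 4 complex II genes, which all take part in the citrate cycle too, had 0.17 ± 0.12 (Sdha) to 0.32 ± 0.14 (Sdhc, a membrane anchor) in the authors' deposited table, none past the test.

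In complex I, Ndufa1, a small membrane subunit needed for assembly, had 973 normalised counts in ethanol, 1392 in DMSO, 1366 in I-CBP112 and 1014 in C646. It rose by 0.52 ± 0.15 with DMSO in the authors' deposited table (adjusted p = 0.00503). In the authors' deposited table Ndufv3, an accessory subunit of the NADH-binding module, rose by 0.48 ± 0.13 (adjusted p = 0.003) and Ndufb10, of the membrane arm, by 0.41 ± 0.14 (adjusted p = 0.0279). Ndufa4 rose by 0.44 ± 0.16 in the authors' deposited table (adjusted p = 0.0477). At the other end, Ndufa4l2 fell, at -1.94 ± 0.44, and the next lowest was Ndufa11, a membrane arm subunit, at 0.03 ± 0.17, both in the authors' deposited table. Setting aside 8 tissue or stress forms (Cox4i2, Cox6a2, Cox6b2, Cox7a1, Cox7b2, Cox8b, Cox8c and Ndufa4l2, a division chosen after the values were seen), the fold changes of the remaining 77 genes ran from 0.03 to 0.75. Their SD of 0.13 was below the root mean square SE of a single gene, 0.16, so their order among themselves is not resolved.

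Cell type markers moved with this comparison, and their part in the result was not tested. With DMSO 8 of 11 tested cardiomyocyte markers were called higher and 10 of 12 fibroblast markers lower. Smooth muscle markers were called lower in 5 of 6 cases and adipocyte markers in 3 of 6, with Ucp1, the defining gene of brown fat, at 0. Of the skeletal muscle list, 2 of 8 genes were tested, 1 called higher and 1 lower, and Myod1 was at 0; its summed level stayed between 0.000771% and 0.000943% in all groups. Of the endothelial list 1 of 2 tested genes was lower, and of the macrophage list 0 of 7. The p-values rest on a normal distribution although the fit leaves 4 residual degrees of freedom. Under a t distribution with those, 0 of the 17 calls passed, and 1 of all 14830 tested genes did. That setting removed nearly every call of the comparison, so it says nothing about these 17 in particular. Centring on the median gene lowered the median to 0.22 and left 76 of 81 genes above 0.

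**Figure D2:**
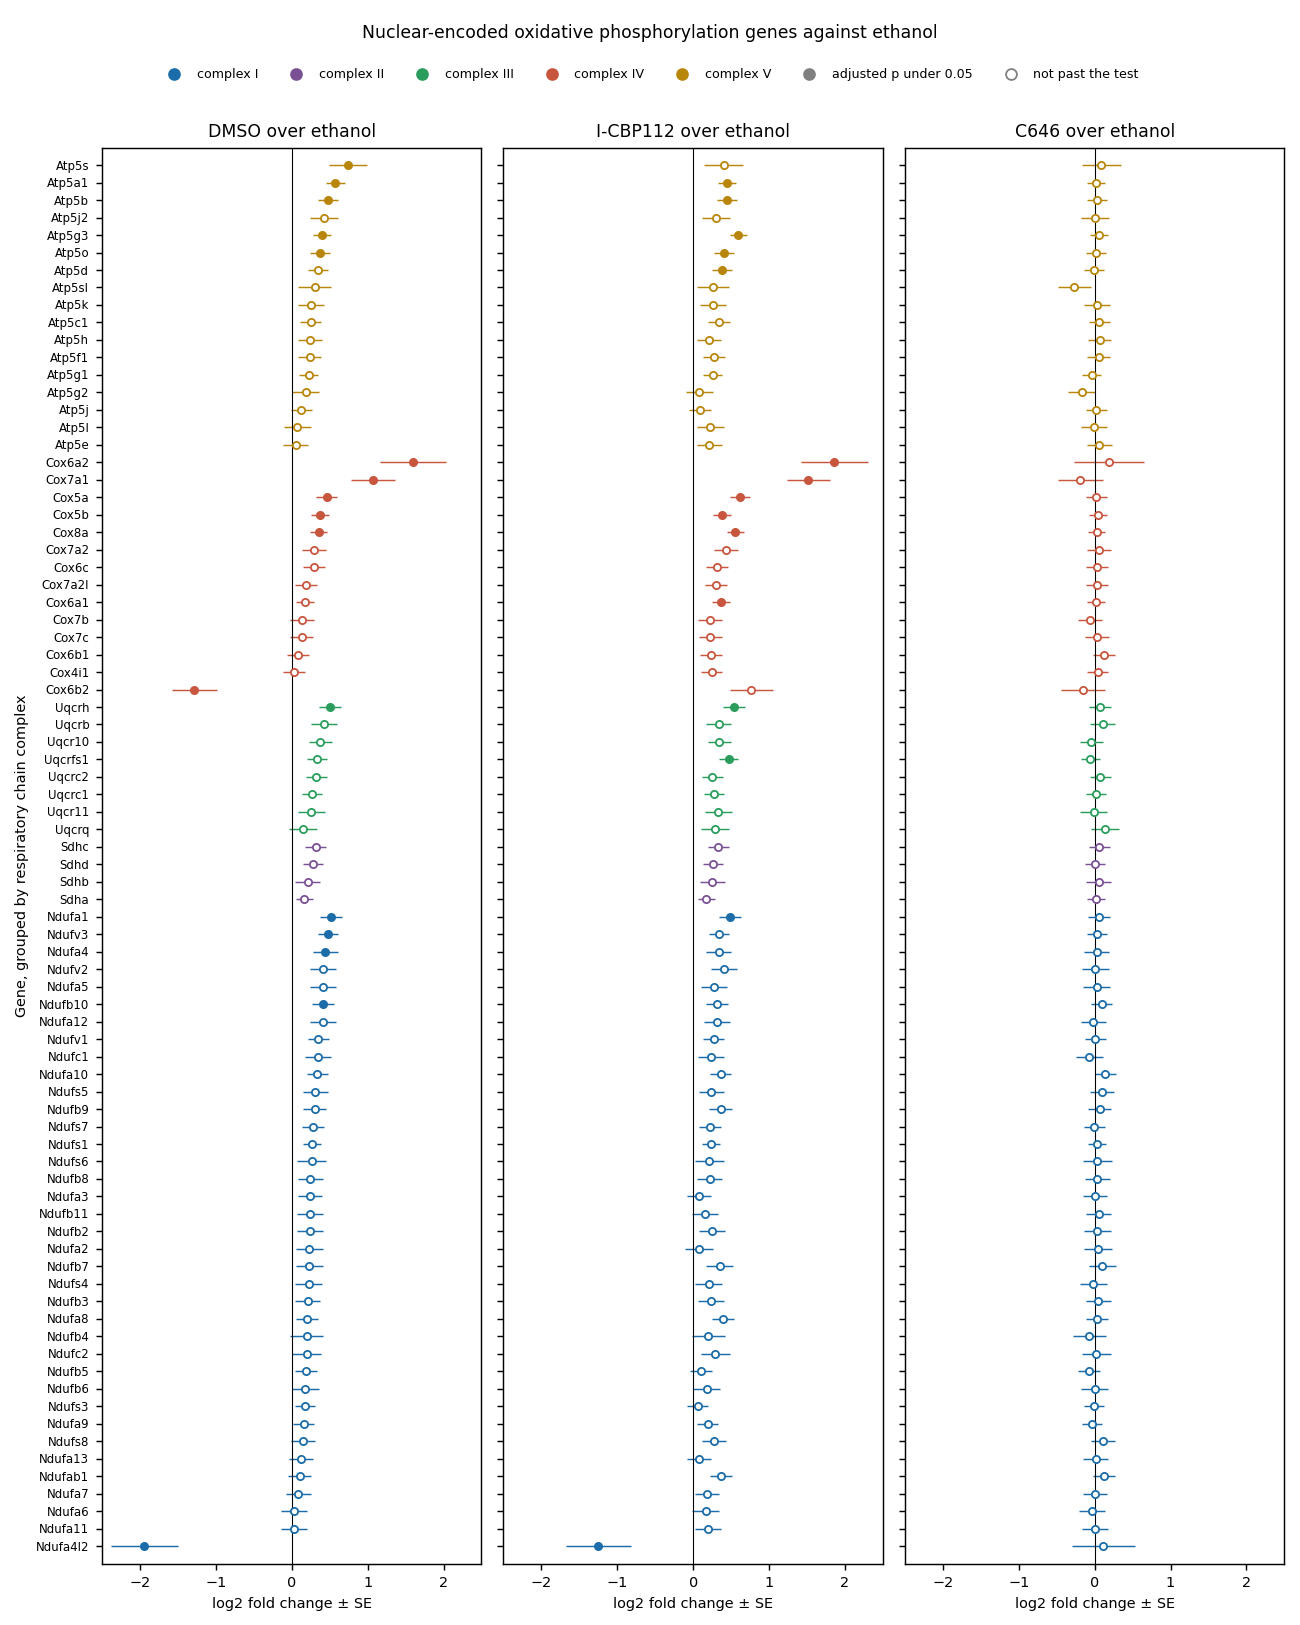
Log2 fold changes against ethanol of 80 of the 81 tested genes (horizontal axis, ± SE of the authors' tables) in 3 panels, 1 a treatment, grouped by complex and ordered by the DMSO value; filled points have an adjusted p below 0.05. With DMSO and I-CBP112 nearly all points lie to the right of 0, with Cox6a2 and Cox7a1 farthest to the right and Ndufa4l2 farthest to the left, and with C646 none is filled.

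I-CBP112 was compared with ethanol to see how the module stood under bromodomain inhibition. Of 81 tested genes, 14 rose and 1, Ndufa4l2, fell in the authors' deposited table, where 4.65% of all tested genes were called higher and 5.25% lower. The median was 0.27, against 0.01 over all tested genes and 0.03 over genes with a mean of 1000 or more, and 80 of 81 lay above 0, against 52.3% of all tested genes. Calls were made in complex I for 1 gene upward and 1 downward, in complex II for 0, in complex III for 2, in complex IV for 6 and in complex V for 5, all upward. Complex IV had the highest median, 0.38, and complex I the lowest, 0.23; those of complexes II, III and V were 0.25, 0.33 and 0.28.

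Cox5a had 3249 normalised counts with I-CBP112 against 2120 with ethanol, a log2 fold change of 0.62 ± 0.13 in the authors' deposited table (adjusted p = 0.000134). Cox8a had 7236 against 4932, and rose by 0.55 ± 0.11 in the authors' deposited table (adjusted p = 3.26e-05). Cox6a1 had 7291 against 5651, and rose by 0.37 ± 0.11 (adjusted p = 0.0181), and Cox5b rose by 0.38 ± 0.12 (adjusted p = 0.0217), both in the authors' deposited table. Cox4i1, at 8592 against 7254 normalised counts, had 0.24 ± 0.14 and did not pass. The lowest value of complex IV was that of Cox7b, a small membrane subunit, at 0.22 ± 0.16 in the authors' deposited table; Cox7a2 (0.43 ± 0.16, adjusted p = 0.0589) and Cox7a2l, a supercomplex factor (0.30 ± 0.14), did not pass either.

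Of the ATP synthase genes, Atp5g3 had 5355 normalised counts with I-CBP112 against 3546 with ethanol, and rose by 0.59 ± 0.12 in the authors' deposited table (adjusted p = 1.23e-05). Atp5g1 had 0.26 ± 0.12 and Atp5g2 0.08 ± 0.18, the lowest value of the complex. Atp5a1 and Atp5b each rose by 0.45, with SEs of 0.12 and 0.13 and adjusted p-values of 0.00504 and 0.0101 in the authors' deposited table. Atp5o rose by 0.40 ± 0.13 and Atp5d, the delta subunit of the central stalk, by 0.38 ± 0.13 in the authors' deposited table (adjusted p = 0.0271 and 0.0385). In complex III, Uqcrh rose by 0.54 ± 0.15 (adjusted p = 0.00489) and Uqcrfs1, the Rieske iron-sulfur protein, by 0.47 ± 0.13 (adjusted p = 0.00449), both in the authors' deposited table. Uqcrfs1 had 1970 normalised counts in ethanol, 2478 in DMSO, 2723 in I-CBP112 and 1893 in C646. Uqcrc2, a core protein, had the lowest value of complex III, 0.25. Of complex I, Ndufa1 alone rose, by 0.49 ± 0.15 in the authors' deposited table (adjusted p = 0.0133); Ndufv3 (0.34 ± 0.13), Ndufa4 (0.34 ± 0.16) and Ndufb10 (0.32 ± 0.14) did not pass, and the core subunit Ndufs3 had the lowest value after Ndufa4l2, 0.06 ± 0.14. In complex II, values ran from 0.17 for Sdha to 0.33 for Sdhc.

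With I-CBP112 all 11 tested cardiomyocyte markers were called higher and 8 of 12 fibroblast markers lower, in the same libraries, and their part in the result was not tested. Smooth muscle markers gave 0 calls of 6, adipocyte markers 2 of 6 lower, macrophage markers 3 of 7 lower, endothelial 1 of 2 lower and skeletal muscle 1 of 2 higher. Under the t distribution named above, 0 of the 15 calls passed, and 0 of all tested genes did, so it does not single out these calls.

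C646 was compared with ethanol to see the module under inhibition of the catalytic site. Not a single one of the 81 tested genes passed in the authors' deposited table by DESeq2, nor did any at an unadjusted p below 0.05 or with a t distribution. Such a result was common to the table: 111 of all 14830 tested genes had an unadjusted p below 0.05, and 0 passed with the t distribution. Over the 34250 genes given an adjusted p, 0.00292% were called higher and 0.00292% lower, 1 gene each. The median of the 81 genes was 0.03, against 0.00 over all tested genes, and 59 of 81 lay above 0, compared with 51.6% of all tested genes. Values ran from -0.27 ± 0.22 for Atp5sl to 0.20 ± 0.46 for Cox6a2 in the authors' deposited table. By complex, the extremes were Ndufa10 at 0.14 and Ndufb5 at -0.08 in complex I, Sdhc at 0.06 and Sdhd at 0.01 in complex II, Uqcrq at 0.14 and Uqcrfs1 at -0.06 in complex III, Cox6a2 and Cox7a1 (-0.19 ± 0.29) in complex IV, and Atp5s at 0.09 and Atp5sl in complex V.

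The precision was that of the other tables, with a root mean square SE of 0.16 over the 77 genes without tissue forms, so changes of moderate size were not excluded gene by gene. For 75 of those 77 the upper bound of the 95% interval was under 0.5; the highest was 0.59, for Atp5s, and the lowest bound was -0.69, for Atp5sl. For Cox7a1 the interval ran from -0.76 to 0.39 and for Cox6a2 from -0.71 to 1.10. None of the 7 marker lists had a call with C646. Over all tested genes the SD of the deposited Wald scores was 0.608 with C646, against 2.23 with DMSO and 1.86 with I-CBP112. The deposited SEs were thus wide beside the C646 differences seen. Over the 77 genes the fold changes had an SD of 0.06, against the root mean square SE of 0.16.

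Tissue forms and their partners gave the widest differences within the module. Cox6a2 (ENSMUSG00000030785.8, chromosome 7, 128205435 to 128206387, minus strand, GRCm38), the heart and skeletal muscle form of subunit 6a, had 26.8 normalised counts in ethanol, 81.3 in DMSO, 97.5 in I-CBP112 and 30.7 in C646. In the authors' deposited table it rose by 1.60 ± 0.44 with DMSO (adjusted p = 0.00324) and by 1.86 ± 0.44 with I-CBP112 (adjusted p = 0.000538). The levels are low, and so is the share: per kb, Cox6a2 made up 0.397% of the Cox6a pair under ethanol, 1.06% under DMSO, 1.11% under I-CBP112 and 0.450% under C646. The exons of Cox6a2 overlap those of Itgad, an integrin with a mean of 3.51 normalised counts. Cox6a1 with DMSO had 0.18 ± 0.11 in the authors' deposited table and did not pass.

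Cox7a1 (ENSMUSG00000074218.3, chromosome 7, 30184144 to 30186078, plus strand), the muscle form of subunit 7a, had 156 normalised counts in ethanol, 328 in DMSO, 448 in I-CBP112 and 137 in C646. It rose by 1.07 ± 0.29 with DMSO (adjusted p = 0.00241) and by 1.52 ± 0.29 with I-CBP112 (adjusted p = 5.61e-06) in the authors' deposited table. Per kb its share of Cox7a1 and Cox7a2 was 8.81%, 14.2%, 17.0% and 7.55% in the order ethanol, DMSO, I-CBP112 and C646. With the listed transcript lengths the shares were 9.74%, 15.6%, 18.6% and 8.36%. Cox7a2, whose promoter is shown above beside that of Cox7a1, had 2431, 2987, 3281 and 2523 normalised counts and did not pass (0.30 ± 0.16 with DMSO). The third muscle form, Cox8b, was untested, at 16.9, 11.7, 33.0 and 18.3 normalised counts, with -0.53 ± 0.79 for DMSO and 0.97 ± 0.75 for I-CBP112 in the authors' deposited table. So the muscle forms stayed the minority of each pair in every treatment.

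Ndufa4l2 (ENSMUSG00000040280.10, chromosome 10, 127514967 to 127517154, plus strand), a paralog of Ndufa4 induced by low oxygen, had 165 normalised counts in ethanol, 42.9 in DMSO, 69.3 in I-CBP112 and 178 in C646. The authors' deposited table gives -1.94 ± 0.44 with DMSO (adjusted p = 0.000213), 3.84-fold lower, and -1.25 ± 0.43 with I-CBP112 (adjusted p = 0.0377), 2.38-fold lower. Its share per kb beside Ndufa4 went from 2.27% with ethanol to 0.444% and 0.766%, and was 2.41% with C646. With the transcript lengths listed in the tables, an alternative chosen after seeing the data, the 4 shares were 7.08%, 1.44%, 2.47% and 7.50%, in the order ethanol, DMSO, I-CBP112 and C646. Its exons overlap Shmt2, a mitochondrial serine enzyme with a mean of 1199 normalised counts, and the strand setting of the counting is not stated; Shmt2 had -0.36 ± 0.14 with DMSO (adjusted p = 0.0642) and -0.22 ± 0.14 with I-CBP112 in the authors' deposited table, and its part in the Ndufa4l2 value was not tested. In all, 24 of the 85 genes have exons that overlap another gene, 22 of them on the other strand. Cox4i2, the form of subunit 4 known from lung and low oxygen, was untested, at 12.9, 3.48, 5.99 and 9.09 normalised counts.

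Cox6b2 (ENSMUSG00000051811.14, chromosome 7, 4751792 to 4753094, minus strand), known as the testis form of subunit 6b, had 193 normalised counts in ethanol, 79.4 in DMSO, 328 in I-CBP112 and 173 in C646. DMSO was the lowest group and I-CBP112 the highest. In the authors' deposited table it fell by 1.28 ± 0.30 with DMSO (adjusted p = 0.000401), 2.43-fold lower, and had 0.77 ± 0.29 with I-CBP112 (adjusted p = 0.0678), not past the test. Per kb its share of Cox6b1 and Cox6b2 was 5.44%, 2.19%, 7.70% and 4.51% in the order ethanol, DMSO, I-CBP112 and C646. With the listed transcript lengths the shares were 7.35%, 2.99%, 10.3% and 6.12%. Cox6b1 itself had 3744, 3966, 4392 and 4084 normalised counts, with no call.

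The tables share the ethanol libraries, so treatments were also compared with each other, where ethanol cancels. The difference of the deposited fold changes was tested over the 14830 genes. For I-CBP112 against DMSO, 1 of 81 genes was called: Cox6b2 was 4.13-fold higher with I-CBP112, a log2 difference of 2.05 ± 0.30 (adjusted p = 1.9e-09). In this comparison 4.31% of all tested genes were called higher and 2.66% lower. No other gene of the 81 had an unadjusted p below 0.05, against 2571 of all 14830 tested genes. The median difference was 0.01, and the 77 genes without tissue forms ran from -0.34 ± 0.25 for Atp5s to 0.26 for Ndufab1, the mitochondrial acyl carrier protein. For Atp5a1 the 95% interval was -0.37 to 0.11, for Atp5b -0.29 to 0.23, for Cox7a1 -0.10 to 0.99 and for Cox6a2 -0.53 to 1.06, so differences within those limits cannot be told from 0 here. In complex IV 14 of 14 tested genes lay above 0, with a median of 0.15 and no call but Cox6b2. In complex I 15 of 38 did, with a median of -0.03. Over all tested genes 45.4% lay above 0, with a median of -0.03. Smooth muscle markers were called higher with I-CBP112 in 5 of 6 cases, cardiomyocyte markers lower in 2 of 11 and fibroblast markers in 2 each way of 12, and their part was not tested.

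**Figure D3:**
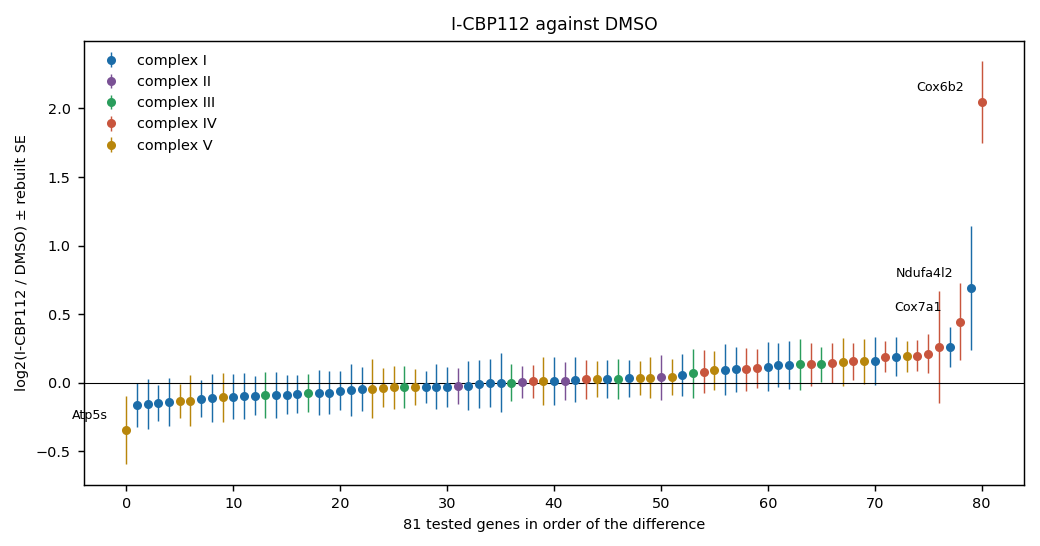
Log2 difference between I-CBP112 and DMSO (vertical axis, ± rebuilt SE) of the 81 tested genes in rising order, coloured by complex. Cox6b2 at 2.05 stands above all the others, and the 14 complex IV points all lie above 0.

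C646 against DMSO gave 15 genes lower and 2 higher of 81, where 7.86% of all tested genes were called lower and 7.98% higher. The median was -0.24 and 6 of 81 genes lay above 0, against -0.03 and 45.8% over all tested genes. Cox7a1 was 2.39-fold lower with C646 (-1.26 ± 0.29, adjusted p = 0.000247), Cox6a2 2.65-fold lower (-1.40 ± 0.43, adjusted p = 0.0112) and Atp5a1 1.47-fold lower (-0.56 ± 0.12, adjusted p = 0.000114). The 2 higher genes were Ndufa4l2 (2.06 ± 0.44, adjusted p = 6.22e-05) and Cox6b2 (1.12 ± 0.30, adjusted p = 0.00285). Further genes called lower were Atp5b, Atp5d, Atp5g3 and Atp5o in complex V, Cox5a, Cox5b and Cox8a in complex IV, Uqcrh, Uqcrfs1 and Uqcr10 in complex III, and Ndufa1 and Ndufv3 in complex I. Uqcr10, a small subunit, had -0.42 ± 0.15 (adjusted p = 0.0371). Markers of other cell types differed here as well: 10 of 11 cardiomyocyte markers were lower with C646, and 10 of 12 fibroblast and 5 of 6 smooth muscle markers higher; their part was not tested.

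I-CBP112 against C646, the bromodomain ligand beside the catalytic inhibitor at equal dose and time, gave 14 genes higher and 1 lower of 81, where 4.69% of all tested genes were called higher and 5.11% lower. The median was 0.25 and 80 of 81 lay above 0, against 0.01 and 51.9% over all tested genes. Cox7a1 was 3.26-fold higher with I-CBP112 (1.70 ± 0.29, adjusted p = 2.13e-07), Cox6a2 3.17-fold (1.67 ± 0.43, adjusted p = 0.00225) and Cox6b2 1.90-fold (0.93 ± 0.29, adjusted p = 0.0174). Of the widely expressed subunits, Cox5a (0.59 ± 0.13), Cox8a (0.52 ± 0.11), Atp5g3 (0.54 ± 0.12) and Uqcrfs1 (0.52 ± 0.13) had adjusted p-values of 0.000257, 9.56e-05, 0.000103 and 0.000978. Atp5a1, Atp5b, Atp5d, Atp5o, Cox6a1, Ndufa1 and Uqcrh made up the others called higher, and Ndufa4l2 was lower (-1.36 ± 0.43, adjusted p = 0.0192). Cardiomyocyte markers were higher in 11 of 11 cases and fibroblast markers lower in 9 of 12, and their part was not tested. Under the t distribution, no call of the 3 comparisons between treatments passed, in the module or over all tested genes, so it does not single out the module.

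Other mitochondrial gene lists were read beside the module. Their counts stand against the shares of all tested genes, with DMSO 8.07% called higher and 7.9% lower. With I-CBP112 these shares were 4.65% and 5.25%. The 13 subunits encoded in mitochondrial DNA had medians of 0.04 with DMSO and -0.05 with I-CBP112, and 1 of 13 rose in each. Their summed level was 0.882% of normalised counts in ethanol, 1.00% in DMSO, 0.989% in I-CBP112 and 0.898% in C646, so with I-CBP112 the sum was higher than in ethanol while the median was below 0. The gene that rose was mt-Nd1, a core subunit of complex I, at 0.52 ± 0.11 and 0.45 ± 0.11 in the authors' deposited table. These medians lay below those of the nuclear-encoded genes, 0.25 and 0.27; the difference between the lists was not tested. Of 15 complex I assembly genes 0 were called with DMSO or I-CBP112, with medians of 0.20 and 0.14. Of 35 tested assembly genes of the other complexes 1 rose with DMSO, Coa4, a complex IV assembly factor, at 0.68 ± 0.25 in the authors' deposited table, and 0 with I-CBP112; the medians were 0.14 and 0.10, and Pet117 was at 0.

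Of 21 tested genes for electron carriers, coenzyme Q synthesis and ATP exchange, 4 rose with DMSO and 3 with I-CBP112. The adenine nucleotide carrier Slc25a4, the form of heart and muscle, rose by 0.62 ± 0.14 and 0.68 ± 0.14, and its relative Slc25a5 by 0.47 ± 0.13 and 0.52 ± 0.13, in the authors' deposited table. Coq8a, a kinase-like protein of coenzyme Q synthesis, rose by 1.24 ± 0.23 with DMSO and had 0.41 ± 0.23 with I-CBP112 in the authors' deposited table, a difference that passed (-0.83 ± 0.23, adjusted p = 0.00670). Coq9 rose with DMSO, by 0.56 ± 0.17 in the authors' deposited table. The phosphate carrier Slc25a3 rose with I-CBP112, by 0.39 ± 0.11, and had -0.21 ± 0.11 with DMSO in the authors' deposited table, a difference that passed (0.60 ± 0.11, adjusted p = 9.20e-06). Cytochrome c (Cycs) had 0.22 ± 0.17 and 0.46 ± 0.17, and the ATP synthase inhibitor Atpif1 0.14 ± 0.14 and 0.06 ± 0.15, none past the test.

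The citrate cycle list, 19 genes, also holds pyruvate dehydrogenase genes (Pdha1, Pdhb and Dlat) and pyruvate carriers (Mpc1 and Mpc2). It had 8 members higher with DMSO and 5 with I-CBP112, and 0 lower, with medians of 0.31 and 0.27. Pdhb was among the calls in both comparisons and Dlat among those with DMSO. Citrate synthase (Cs) rose by 0.44 ± 0.12 and 0.37 ± 0.12 and Ogdh, of the 2-oxoglutarate dehydrogenase complex, by 0.46 ± 0.12 and 0.49 ± 0.12 in the authors' deposited table. Idh3a, a catalytic subunit of the NAD-dependent isocitrate dehydrogenase, rose by 0.52 ± 0.15 and 0.59 ± 0.15 in the authors' deposited table. Of 28 import and outer membrane genes, 1 fell with DMSO, the chaperone Hspa9 (-0.54 ± 0.11), and 2 rose with I-CBP112, Vdac2 (0.36 ± 0.12) and Chchd3 (0.48 ± 0.14), in the authors' deposited table.

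Of 18 tested transcriptional regulators, Ppargc1a, the coactivator PGC-1alpha that drives mitochondrial gene programmes, rose by 0.61 ± 0.19 with DMSO (adjusted p = 0.0103) and by 0.87 ± 0.19 with I-CBP112 (adjusted p = 0.000105) in the authors' deposited table. In the authors' deposited table Esrra, the nuclear receptor ERRalpha that works with it, rose by 0.48 ± 0.15 with DMSO (adjusted p = 0.0145) and had 0.40 ± 0.15 with I-CBP112 (adjusted p = 0.0769). The factors Nrf1 (0.00 ± 0.16 and -0.03 ± 0.16), Gabpa (0.08 ± 0.13 and 0.12 ± 0.13) and Tfam (0.26 ± 0.17 and 0.23 ± 0.17), and the coactivator Ppargc1b (0.22 ± 0.40 and 0.73 ± 0.39), did not pass in the authors' deposited table, and Esrrg was untested at a mean of 22.1 normalised counts. The medians of the list were 0.04 and 0.06. With C646 the call count was 0 in each of the 7 mitochondrial lists, and their medians ran from -0.07 to 0.08.

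**Figure D4:**
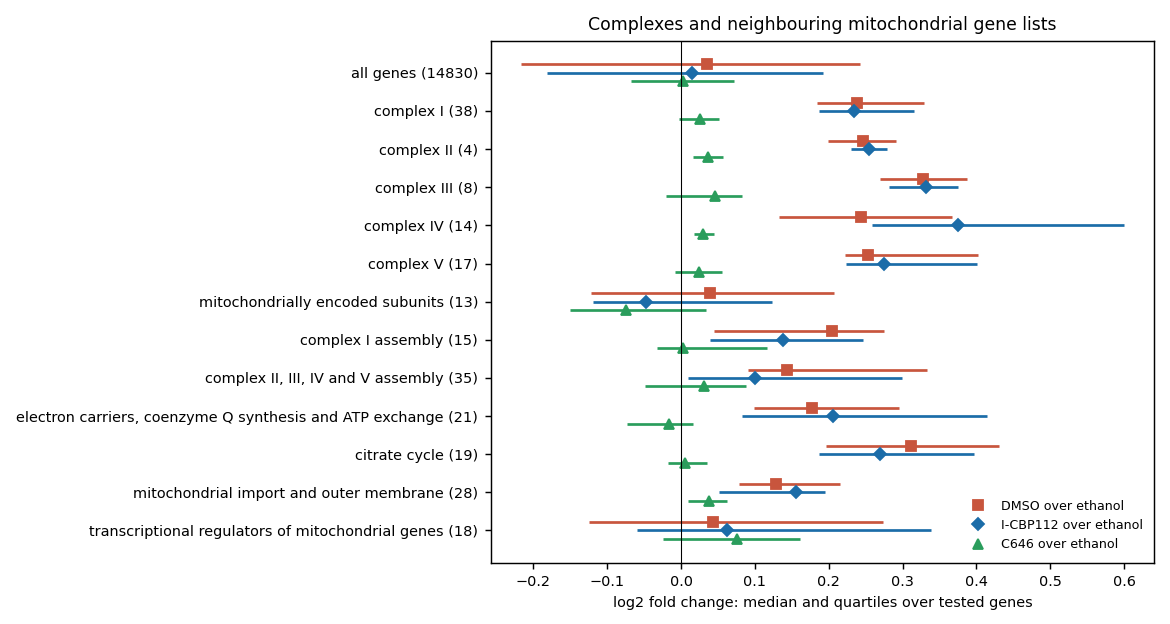
Median (marker) and quartiles (line) of the log2 fold change against ethanol over the tested genes of each complex and of 7 further mitochondrial lists, with all tested genes at the top; the number of genes is in brackets. The nuclear-encoded complexes lie at medians of 0.23 to 0.38 with DMSO and I-CBP112, the mitochondrially encoded subunits and the regulators near 0, and C646 stays near 0 throughout.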

How the data were processed

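RNA of 8 libraries was column-purified and sequenced as TruSeq libraries, per the labels' protocols. Reads were quantified with kallisto 0.43.1 and tested with DESeq2 (version not given in the sources used here), with the build GRCm38.p5, per the submitters' processing notes. The authors deposited 3 comparison tables of 50600 genes. The deposited signal (baseMean) is a mean normalised count over all libraries, the log2 fold changes and their SEs are the authors', the Wald score is the deposited fold change over its SE, and each p-value and adjusted p is the authors' DESeq2 value. Ethanol, which has no table, was read as the reference. Calls against ethanol are the authors'; p-values against ethanol were recomputed for the alternatives only.

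Group means were rebuilt from the deposited signal and fold changes, and levels per kb use the median length of a gene's protein-coding transcripts in GENCODE M21. Treatments were compared with each other by the difference of deposited fold changes over an SE rebuilt with 1 dispersion per gene, a two-sided normal p and Benjamini-Hochberg adjustment over 14830 genes (Python 3.11.15, numpy 2.4.6, scipy 1.17.1, pandas 2.3.3). The same formula gave the deposited SE to within 1% for 98.9% or more of tested genes and for 81 of 81 members. The dispersion was solved from these same SEs, so this shows that 1 dispersion fits the 3 tables and does not check the SE of the differences. The script was also run on simulated data, whose SEs were made with the same formula. Positions come from GENCODE M21, which held all 85 genes, and promoters from RefSeq. Pseudogenes that carry these families' symbols (7) had mean counts of at most 2.56; those under other names were not examined.

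Groups follow the treatment label. Named genes are members past adjusted p 0.05, tissue forms and their partners, the Atp5g genes, the highest mean count and the highest and lowest fold change of each complex, a fixed set of regulators and carriers, and up to 4 genes a list with the largest Wald scores. The genes and the 14 lists were chosen with earlier results of these data known. The values of 1 complex I gene are not reported here. Alternatives changed the scaling, the count filter, the reference distribution, the threshold, the SE and, for levels per kb, the transcript length.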

Additional observations from a re-analysis of the deposited data

How the results depend on the processing

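Single-library values were not analysed here, so leaving out a library was not run. No paired analysis was possible because the tables hold no columns of single libraries that carry the replicate numbers. When p-values were taken from a t distribution (4 degrees of freedom), the counts of members past adjusted p 0.05 fell to 0 in all 5 comparisons that had any: DMSO against ethanol (from 17), I-CBP112 against ethanol (from 15), I-CBP112 against DMSO (from 1), C646 against DMSO (from 17) and I-CBP112 against C646 (from 15). Over all tested genes this setting left 1 call for DMSO against ethanol and 0 in each other comparison. Hardly any gene could pass it with 2 libraries a group, so the loss of member calls is not particular to the module. At an adjusted p below 0.01 the counts were 11 for DMSO and 8 for I-CBP112 against ethanol, 6 for C646 against DMSO and 7 for I-CBP112 against C646. The counts over all tested genes, in the same order, were 1522, 976, 1526 and 951, from 2368, 1468, 2349 and 1454 at 0.05. With no filter on low counts, which adjusts over more genes, C646 against DMSO gave 11 members and 1829 of all tested genes. With the upper bound of the SE, C646 against DMSO and I-CBP112 against C646 gave 3 members each, and 839 and 501 of all tested genes. Without the 8 tissue or stress forms, a setting chosen after seeing the data, I-CBP112 against DMSO gave 0. Other counts of members stayed within 1.5 times of those reported. Of 65 called pairs of gene and comparison, none changed direction under any setting run. Only the scaling settings alter a fold change, by shifts that were small beside the called changes, so this says little about robustness. Of the 65, 56 stayed past the threshold when centred on the median gene and 59 when scaled to summed counts. With a minimum mean of 50 counts 65 stayed, with no filter 48, and at a threshold of 0.01 33. Of the shares of isoform pairs per kb, 20 changed with the listed transcript lengths and 4 stayed the same. With 2 libraries a group, the median SE of the tested members, 0.16 on the log2 scale, limits what the test resolves.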
